A study of Mus musculus with 40 samples.

Results

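The change between 6 and 12 months of age was measured in the cerebella of SCA6 84Q/+ mice. All genes with at least 1 CPM (counts scaled to the size of the library) in every library of at least one of the 2 ages were taken, which gave 13222 of the 21967 genes counted. The comparison rests on 5 libraries from 6-month mice and 5 from 12-month mice, out of 40 libraries in all. These mice are heterozygous, with a very long CAG repeat, which encodes glutamine, knocked into 1 mouse allele of Cacna1a, so every SCA6 library of either age carries it together with a WT allele. WT libraries of the same ages, 5 each, and SCA6 libraries of 3 and 19 months, 5 each, serve for reference. The RNA was polyadenylated RNA of the whole cerebellum, in which fewer cells of a type and less RNA per cell cannot be told apart. The ages lie before the motor impairment that the study describes for this line at a later age, and the question addressed is which transcripts move in the mutant cerebellum over that presymptomatic interval.

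Cacna1a encodes the alpha subunit that forms the pore of the P/Q-type calcium channel, Cav2.1, which is abundant in Purkinje neurons, the output cells of the cerebellar cortex. Membrane and secreted proteins fold in the endoplasmic reticulum (ER). When misfolded protein accumulates there, the unfolded protein response, with the transcription factors XBP1, ATF6 and ATF4 downstream of its sensors, raises chaperones such as HSPA5 (BiP), while HSF1 does the same for chaperones of the cytosol. Interferon signalling acts through transcription factors such as the IRF proteins on antiviral and antigen-presentation genes, and microglia, the macrophages of the brain, are among the cells that respond to it.

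The 10 libraries held between 44017163 and 64042765 counts assigned to genes. The level of Comp, a gene chosen after its values were seen because it separates the genotypes, was 8.18 to 14.1 CPM in all 10 of them, against 3.79 to 5.63 CPM in the WT libraries of the same ages. Cacna1a itself, at chromosome 8, 84388440 to 84640246 in GRCm38, was measured at 402 ± 34.9 CPM (SD, n = 5) at 6 months and 326 ± 23.4 CPM (SD, n = 5) at 12 months. The labels carry an ID number that differed between the ages, being 7 or 8 at the younger age and 1, 2 or 3 at the older, and age and ID number therefore cannot be told apart. Transcripts of Y-linked genes were present in 6-month replicate 1 and 12-month replicate 5, and absent from the other 8 libraries. These 2 libraries stood apart in several gene groups, so values without them are given where it matters. A further number follows the ID number in the labels, and the pair of numbers differed between all 10 libraries. Replicates 1 and 2 of 6 months share ID number 7, with mean Y-linked levels of 75.8 and 0.00806 CPM. An ID number therefore does not mark a given animal. The study's methods state that samples were prepared individually. The labels do not state that libraries of a group came from separate animals. The p-values measure the spread between these libraries, and how much of it is technical was not tested.

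The libraries separated by age on the first principal component, which held 56.2% of the variance. Its scores ran from −21.3 to −5.06 at 6 months and from 3.29 upwards at 12 months. The score of 12-month replicate 5 (3.29) lay nearer to 6-month replicate 2 (−5.06) than to the next 12-month library (13.2). By a chi-square between counts, 12-month replicate 5 was also closer to 6-month replicates 2 and 3 (12.3 and 17.5 per degree of freedom) than to any 12-month library (18.9 or more). By edgeR's quasi-likelihood test with Benjamini-Hochberg adjustment, 2090 of the 13222 genes (15.8%) met the rule for a call, an adjusted p no greater than 0.05 and a log2 fold change of at least 0.3 in size. Of these, 1237 (9.36%) were higher and 853 (6.45%) lower at 12 months. Most changes were small, with a median size of 0.41 (log2) among called genes, and 89 reached 1, of which 70 were higher and 19 lower. DESeq2 called 2079 genes, and leaving out each library in turn gave 1748 to 2555. The 2 ages did not overlap in 2820 genes (21.3%), of which 1330 were also called.

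The genes that rose most belonged to the interferon response, and those that fell included chaperones of the ER. The plot of calls by gene list shows these groups beside the rest.

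**Figure D1:**
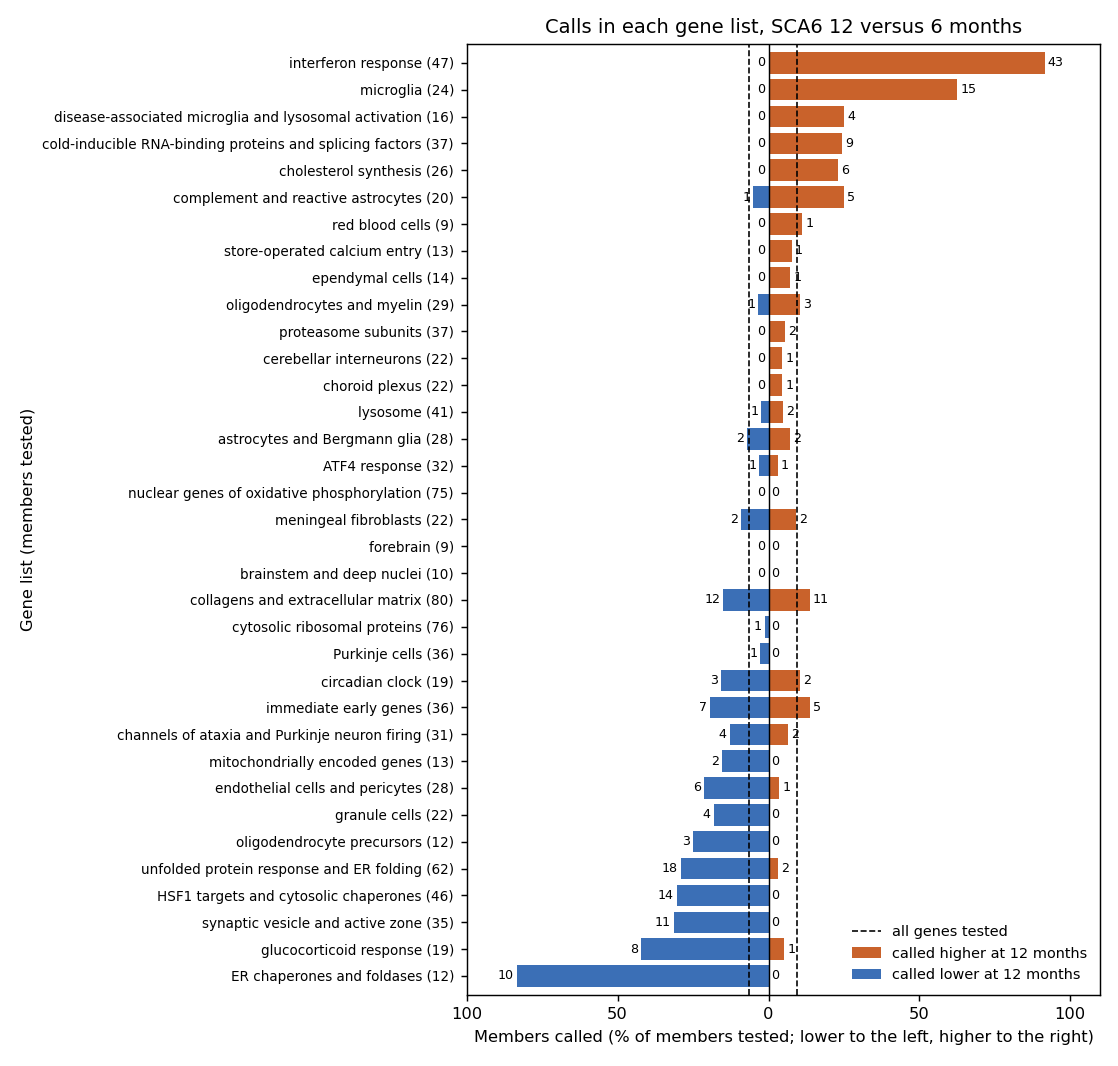
Members of each gene list called at 12 against 6 months in SCA6 cerebellum, as a percentage of members tested (x axis, lower to the left and higher to the right), with the number of calls beside each bar and the share of all 13222 genes tested as dashed lines. Of 47 interferon genes 43 were called higher, and of 12 ER chaperones and foldases 10 were called lower.

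The promoters of genes in these groups are shown first, because both groups are known to share binding sequences. RefSeq windows of 250 bases before to 50 bases after the start of a gene (GRCm38.p6) were searched on both strands. The ER stress response element, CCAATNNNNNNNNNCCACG, was found in 39 of 32851 windows (0.119%). It was present in 6 of the 11 ER chaperones and foldases with a window, and the 5 of those 6 that were called lower are printed 5′ to 3′ on the strand of the gene, up to 25 bases either side, with the outer bases of the element, CCAAT and CCACG, in capitals. In Hsp90b1, Calr and Creld2 it lies on the opposite strand and so reads CGTGG and then ATTGG.
Hspa5: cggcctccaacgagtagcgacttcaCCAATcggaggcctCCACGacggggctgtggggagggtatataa
Hsp90b1: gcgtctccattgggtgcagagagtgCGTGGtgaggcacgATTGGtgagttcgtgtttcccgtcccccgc
Calr: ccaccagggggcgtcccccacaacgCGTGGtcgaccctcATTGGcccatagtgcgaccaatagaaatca
Pdia6: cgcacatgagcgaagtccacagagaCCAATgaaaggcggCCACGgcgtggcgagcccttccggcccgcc
Creld2: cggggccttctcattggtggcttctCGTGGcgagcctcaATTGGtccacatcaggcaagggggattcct
The stretches lie in GRCm38.p6 before the RefSeq start used for the window, Hspa5 at chr2:34772000-34772068 (plus strand), Hsp90b1 at chr10:86705508-86705576 (minus strand), Calr at chr8:84847050-84847118 (minus strand), Pdia6 at chr12:17266466-17266534 (plus strand) and Creld2 at chr15:88819495-88819563 (plus strand). Hsp90b1 held 2 copies before its start, and the copy nearer to it is shown. Over all 17 tested genes with the element, 8 were called lower and 0 higher at 12 months, with a median log2 fold change of −0.18. This stands against 6.45% of all genes called lower. Of the 8, 6 belong to the list of ER folding and unfolded protein response genes described below, so the count is largely that of the list.

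The interferon-stimulated response element, GAAANNGAAA, was found in 1131 windows (3.44%) and in 19 of the 38 tested interferon genes with a window. Of these 19, 18 were called higher, as were 43 of all 47 interferon genes tested. Iigp1, Oasl2 and Usp18, described below, are not among the 19, for lack of a match or of a window. The stretches of the called genes Gbp7, Gbp2, Trim30d and Ifit1, also described below, are printed in the same way. The TTTC of the opposite strand is in capitals.
Gbp7: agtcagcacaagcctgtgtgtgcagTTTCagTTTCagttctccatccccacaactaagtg
Gbp2: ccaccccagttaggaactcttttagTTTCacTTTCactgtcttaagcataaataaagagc
Trim30d: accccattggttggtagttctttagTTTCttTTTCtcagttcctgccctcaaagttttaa
Ifit1: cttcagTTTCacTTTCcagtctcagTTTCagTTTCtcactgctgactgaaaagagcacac
They lie in GRCm38.p6 before the RefSeq start used for the window, Gbp7 at chr3:142530258-142530317 (plus strand), Gbp2 at chr3:142620579-142620638 (plus strand), Trim30d at chr7:104507856-104507915 (minus strand) and Ifit1 at chr19:34640779-34640838 (plus strand). Ifit1 held 2 copies, both within the stretch. Over all 355 tested genes with the element, 66 were called higher and 13 lower, with a median log2 fold change of 0.06. This stands against 9.36% of all genes called higher and 6.45% lower. Of the 66, 18 belong to the interferon list. A match to these letters is a description of the promoter and does not show that a factor bound there.

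Of the 12 ER chaperones and foldases, 10 fell between 6 and 12 months and 0 rose, with a median log2 fold change of −0.76, against 6.45% of all genes called lower and a median of 0.00 over all genes. This list was chosen by the study from libraries that include these, so its direction is not independent evidence. In 7 of the 12 genes the ages did not overlap, with all 12-month libraries below all 6-month libraries. Over all genes this held for 1413 of 13222.

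Hspa5, the HSP70 chaperone of the ER lumen, was measured at 796, 489, 449, 489 and 452 CPM in 6-month replicates 1 to 5, and at 227, 213, 214, 254 and 435 CPM in 12-month replicates 1 to 5. Both libraries with Y-linked transcripts were the highest of their age, and the ages still did not overlap. The log2 fold change of Hspa5 was −0.98 ± 0.21 (SE, adjusted p = 0.004). Without those 2 libraries it was −1.04 (adjusted p = 1.5e-05).

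Hsp90b1, the HSP90 of the ER, was measured at 1230, 737, 663, 663 and 591 CPM at 6 months and at 460, 437, 448, 469 and 726 CPM at 12 months. The 12-month library with Y-linked transcripts lay above 3 of the 6-month libraries, and the groups overlapped. The log2 fold change of Hsp90b1 was −0.60 ± 0.19 (SE, adjusted p = 0.025). DESeq2 did not call it, and neither did the fits without 6-month replicate 1, where it was −0.37, or without any one of 12-month replicates 1 to 4.

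Hyou1, which exchanges the nucleotide of HSPA5, fell from 141 ± 38.4 to 77.6 ± 19.3 CPM (SD, n = 5 each; log2 fold change −0.85 ± 0.18 SE, adjusted p = 0.0038). Calr, the lectin chaperone calreticulin that also buffers ER calcium, fell from 468 ± 85.3 to 260 ± 70.2 CPM (log2 fold change −0.84 ± 0.16 SE, adjusted p = 0.0025). The disulfide isomerases Pdia3, Pdia4 and Pdia6 had log2 fold changes of −0.62, −0.71 and −0.74, with adjusted p = 0.0026, 0.01 and 0.0073. In Pdia4 and Pdia6 the ages overlapped through 12-month replicate 5, at 70 and 136 CPM. Creld2, a disulfide isomerase-like protein of the ER, and the co-chaperone Dnajb11 changed by −0.91 and −0.79 on the log2 scale (adjusted p = 0.0029 and 0.0023). Xbp1, the transcription factor of the IRE1 branch, was measured at 195, 153, 142, 168 and 156 CPM at 6 months and at 78.1, 79.6, 82.3, 81.4 and 130 CPM at 12 months. Each 12-month value lay below each 6-month value, and the log2 fold change was −0.84 ± 0.13 (SE, adjusted p = 0.0017).

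The remaining members were not called. Dnajc3, the co-chaperone p58IPK, had a log2 fold change of −0.18 ± 0.09 (SE, adjusted p = 0.13), and Dnajb9 one of −0.04 ± 0.06 (SE, adjusted p = 0.62), with 41.9 to 50.3 CPM over the 10 libraries.

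**Figure D2:**
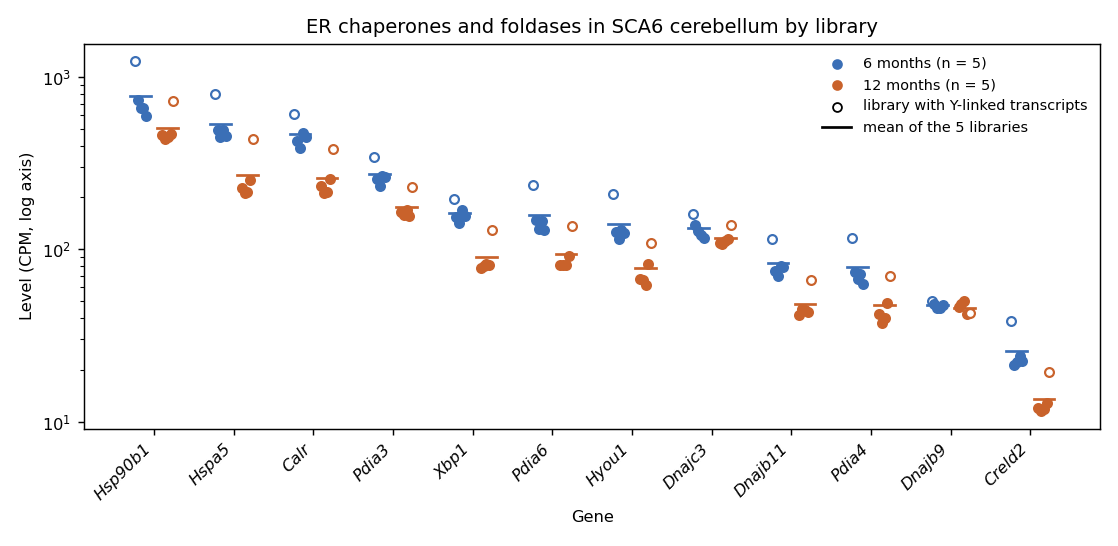
Level of the 12 ER chaperones and foldases in each SCA6 library (y axis, CPM on a log axis; 6 months in blue, 12 months in orange; lines are means of 5 libraries; open points are the 2 libraries with Y-linked transcripts). The 12-month points lie below the 6-month points for most genes, with Hspa5 at 213 to 435 CPM against 449 to 796 CPM, and the open point is the highest of its age for 11 of the 12 genes.

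Sdf2l1, a component of the ER chaperone complex with HSPA5, had the lowest fold change of all named genes. It was measured at 19.9, 11.5, 12.1, 12 and 12.1 CPM at 6 months and at 3.75, 3.47, 3.75, 3.57 and 8.66 CPM at 12 months. The ages did not overlap, and the log2 fold change was −1.52 ± 0.25 (SE, adjusted p = 0.0017). In the wider list of ER folding and unfolded protein response genes, 18 of 62 genes were called lower and 2 higher, with a median of −0.11. The wider list holds all 12 genes of the shorter one, of which 10 were called lower and are counted again here. The 2 called higher were Dnajc10 (log2 fold change 0.35 ± 0.06 SE, adjusted p = 0.0025) and Erlec1 (0.3 ± 0.07 SE, adjusted p = 0.0057). Over all genes 6.45% were called lower and 9.36% higher. Its members outside the shorter list included Syvn1, the ubiquitin ligase HRD1 of ER-associated degradation (log2 fold change −0.57 ± 0.09 SE, adjusted p = 0.0017), and Fkbp2, a prolyl isomerase of the ER (−0.42 ± 0.07 SE, adjusted p = 0.0018). In the ATF4 list, 1 of 32 genes was called in each direction, against the same shares of all genes.

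Of 46 HSF1 targets and cytosolic chaperones 14 were called lower and 0 higher, with a median of −0.19, against 6.45% of all genes called lower. Of the 46 fold changes, 43 were below 0. The study named Hsp90aa1, Hsp90ab1 and Ahsa1 of this list from libraries that include these, so their direction is not independent evidence. The heat shock element (GAANNTTCNNGAA or TTCNNGAANNTTC) was present in 5 of the 36 members with a window, against 0.603% of all windows, and 1 of the 5 was called lower. Hsf1, the transcription factor itself, was measured at 37, 31, 33.7, 40.3 and 40.6 CPM at 6 months and at 27.5, 25.2, 25.5, 27.3 and 29.5 CPM at 12 months. All 12-month libraries were lower (log2 fold change −0.42 ± 0.07 SE, adjusted p = 0.0021). Hspa8, the constitutive HSP70, fell from 2330 ± 344 to 1610 ± 322 CPM (log2 fold change −0.52 ± 0.12 SE, adjusted p = 0.0069), with 12-month replicate 5 at 2140 CPM above the lowest 6-month library at 2090 CPM. Stip1, which links HSP70 to HSP90, and Ahsa1, which activates the HSP90 ATPase, each had a log2 fold change of −0.50 (SE 0.11 and 0.12, adjusted p = 0.0042 and 0.0059).

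Scores of a list, the mean over its members of log2 CPM relative to the 20 SCA6 libraries, followed the same order. The ER chaperone score was 0.94, 0.40, 0.28, 0.41 and 0.33 at 6 months and −0.35, −0.38, −0.35, −0.26 and 0.26 at 12 months. The highest score of each age was that of the library with Y-linked transcripts. The cytosolic chaperone score was 0.47, 0.10, 0.06, 0.12 and 0.09 at 6 months and −0.14, −0.18, −0.12, −0.14 and 0.06 at 12 months. Without the 2 libraries, 10 of 12 ER chaperones and 13 of 46 cytosolic chaperones were called lower, with medians of −0.75 and −0.18.

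The interferon response moved the other way. Of 47 genes tested, 43 were called higher at 12 months and 0 lower, with a median log2 fold change of 1.31, against 9.36% of all genes called higher. The 12-month libraries lay wholly above the 6-month libraries in 41 of the 47, against 1407 of all 13222 genes tested.

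Iigp1, an interferon-inducible GTPase, was measured at 2.07, 2.07, 1.97, 2 and 1.72 CPM at 6 months and at 13.5, 19.2, 4.98, 6.25 and 4.43 CPM at 12 months. The groups were far apart, and 12-month replicates 1 and 2, which share an ID number, were the highest. The log2 fold change of Iigp1 was 2.31 ± 0.37 (SE, adjusted p = 0.0017), and without 12-month replicate 2 it was 1.90 (adjusted p = 0.0025).

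Ifit1, which binds foreign RNA, was measured at 6.87, 4.12, 4.94, 4.01 and 3.62 CPM at 6 months and at 11.1, 107, 11.1, 18.1 and 10.8 CPM at 12 months. All 12-month libraries were higher than all 6-month libraries, but replicate 2 was far above the other 4. The log2 fold change of Ifit1 was 2.76 ± 0.63 (SE, adjusted p = 0.0058), and 1.45 without that replicate (adjusted p = 0.0018). In Oasl2, of the oligoadenylate synthetase family, the same replicate stood apart, with 5.89, 4.51, 6.39, 5.01 and 5.29 CPM at 6 months and 9.04, 145, 11, 15.1 and 10.4 CPM at 12 months. Its log2 fold change was 2.83 ± 0.74 (SE, adjusted p = 0.011), and 1.07 without replicate 2 (adjusted p = 0.0018).

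Ifi213, Ddx60, Ifi27l2a and Usp18, which are interferon-induced genes, had log2 fold changes of 3.23, 3.12, 2.96 and 2.75 with all libraries, and of 2.05, 1.82, 1.36 and 1.09 without 12-month replicate 2. All 4 were called with and without it. The class I antigen-presentation genes H2-Q6 and H2-Q7 had log2 fold changes of 2.21 ± 0.42 and 2.34 ± 0.53 (SE, adjusted p = 0.0027 and 0.0052). H2-Q6 was measured at 12.1, 14.5, 3.93, 2.74 and 4.14 CPM at 12 months, and at 1.16 to 1.94 CPM at 6 months. Replicates 1 and 2 were again the highest. H2-Q genes, the Ifit, Oas and Gbp families and genes related to Ifi213 are near copies of each other, and reads may have been split between them.

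The guanylate-binding proteins act on vacuoles of pathogens. Gbp7 was measured at 4.89, 4.23, 5.13, 4.11 and 3.35 CPM at 6 months and at 15.3, 26.5, 9.27, 10.3 and 8.02 CPM at 12 months (log2 fold change 1.69 ± 0.28 SE, adjusted p = 0.0018). Gbp2 rose from 5.12 ± 0.405 to 10.5 ± 3.26 CPM (SD, n = 5 each; log2 fold change 1.05 ± 0.18 SE, adjusted p = 0.002). Trim30d changed by 1.86 ± 0.37 (SE, adjusted p = 0.0032), or by 1.23 without 12-month replicate 2, and the immunoproteasome subunit Psmb8 by 1.22 ± 0.29 (SE, adjusted p = 0.007).

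The interferon score was −0.43, −0.61, −0.31, −0.51 and −0.63 at 6 months and 0.38, 2.14, 0.14, 0.36 and 0.14 at 12 months. Replicate 2 was thus the highest by a wide margin, and the other 4 were still above every 6-month library. Without replicate 2, 43 of 47 genes were again called higher, with a median of 0.82. limma voom with quality weights called 28 of the 47, and DESeq2 called 31 and gave no adjusted p for 13.

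Of 24 microglial markers 15 were called higher and 0 lower, with a median of 0.45, against 9.36% of all genes called higher. In 14 of them the 12-month libraries lay wholly above the 6-month libraries, against 1407 of all 13222 genes tested. Ctss, the lysosomal protease cathepsin S, was measured at 40.1, 42.4, 44.2, 41.8 and 39.8 CPM at 6 months and at 69.7, 121, 66, 58.9 and 63 CPM at 12 months. The ages did not overlap (log2 fold change 0.87 ± 0.16 SE, adjusted p = 0.0024), and without 12-month replicate 2 the log2 fold change of Ctss was 0.63. Tyrobp, the adaptor of TREM2, changed by 0.72 ± 0.11 (SE, adjusted p = 0.0017). Trem2, a lipid receptor of microglia, changed by 0.78 ± 0.13 (SE, adjusted p = 0.002), and Siglech by 0.80 ± 0.14 (SE, adjusted p = 0.0021). The microglial score was −0.34 to −0.23 at 6 months and 0.08, 0.53, 0.03, 0.01 and 0.10 at 12 months, so replicate 2 was the highest here as well.

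Of 16 genes of disease-associated microglia 4 were called higher, with a median of 0.13, against 9.36% of all genes called higher. Lyz2, lysozyme, was measured at 11.9, 12.6, 14.7, 15.6 and 13.5 CPM at 6 months and at 23, 27.3, 23.6, 23 and 22.6 CPM at 12 months. These groups were tight and did not overlap (log2 fold change 0.82 ± 0.08 SE, adjusted p = 0.0011). Cybb, the catalytic subunit of the phagocyte NADPH oxidase, changed by 0.97 ± 0.20 (SE, adjusted p = 0.0035), and Lgals3 by 0.48 ± 0.10 (SE, adjusted p = 0.0038). Among 20 genes of complement and reactive astrocytes 5 were called higher and 1 lower, against 9.36% and 6.45% of all genes. C4b, complement factor 4, was measured at 16.7, 18, 22.3, 15.9 and 15 CPM at 6 months and at 28.4, 72.4, 29.2, 33.7 and 37.4 CPM at 12 months. It did not overlap between the ages (log2 fold change 1.21 ± 0.23 SE, adjusted p = 0.0026). Serping1, the C1 inhibitor, changed by 0.44 ± 0.07 (SE, adjusted p = 0.0017). In astrocytes and Bergmann glia, 2 of 28 markers were called in each direction, against the same shares of all genes.

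**Figure D3:**
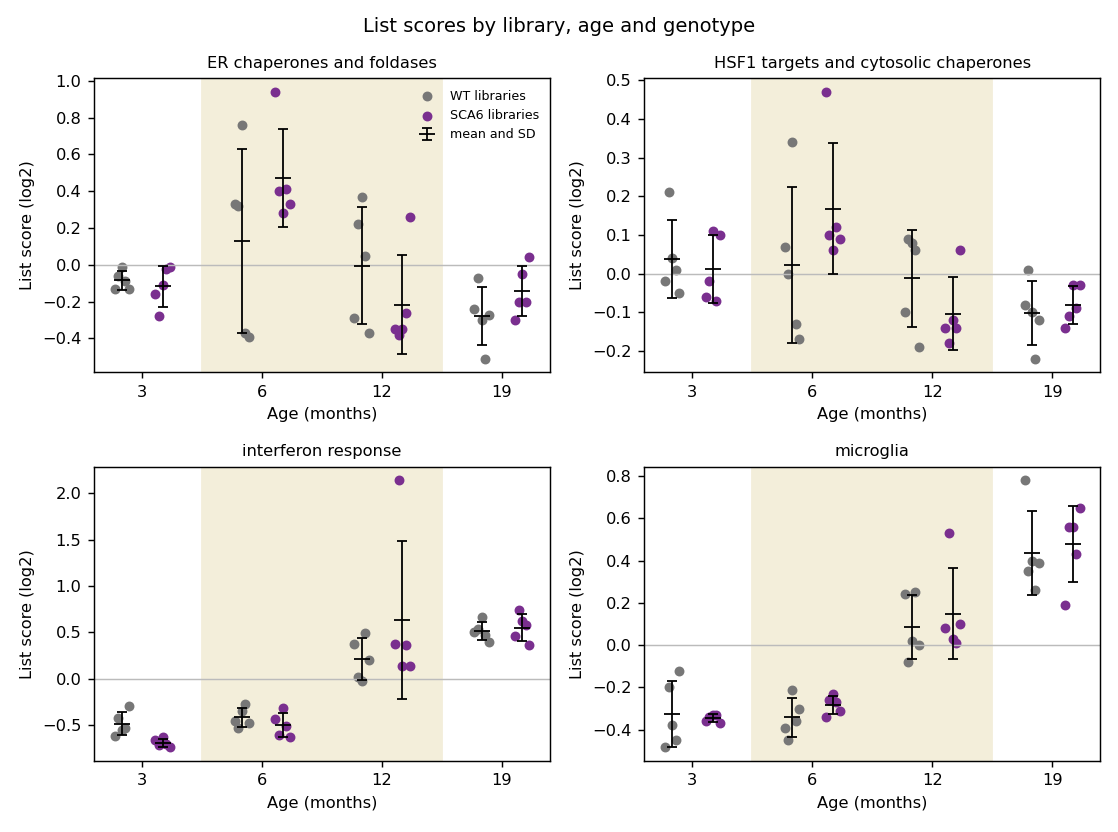
Scores of 4 gene lists in each of 40 libraries (y axis, mean log2 CPM relative to the 20 SCA6 libraries; x axis, age in months; WT in grey, SCA6 in purple; bars are mean and SD of 5 libraries; the shaded part holds the 2 ages compared). The ER chaperone score of SCA6 falls from 0.28 to 0.94 at 6 months to −0.38 to 0.26 at 12 months, while the interferon score rises from −0.63 to −0.31 to 0.14 to 2.14.

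Of 19 glucocorticoid-responsive genes 8 were called lower and 1 higher, with a median of −0.29, against 6.45% of all genes called lower. Cdkn1a, the cell cycle inhibitor p21, was measured at 49.8, 31.7, 30.2, 34.9 and 37.1 CPM at 6 months and at 14.7, 12.6, 14.6, 14.9 and 26.2 CPM at 12 months. Both libraries with Y-linked transcripts were again the highest of their age, and the ages did not overlap (log2 fold change −1.13 ± 0.18 SE, adjusted p = 0.0017). Zbtb16, a transcription factor, was measured at 51.4, 13.2, 12.8, 19.2 and 17.4 CPM at 6 months and at 7.18, 10.6, 8.42, 10.6 and 13.4 CPM at 12 months. Its ages overlapped, and its log2 fold change of −1.17 ± 0.34 (SE, adjusted p = 0.017) was −0.75 without the 2 libraries (adjusted p = 0.0051) and −0.62 without 6-month replicate 1 alone. Plin4, a lipid droplet protein, Hif3a and Angptl4, a lipase inhibitor, had log2 fold changes of −0.98, −0.84 and −0.76 (adjusted p = 0.0045, 0.004 and 0.0025). Plin4 and Hif3a were highest in 6-month replicate 1, at 14.7 and 19.1 CPM against at most 8.25 and 10.8 CPM in the other 6-month libraries.

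Of 35 genes of the synaptic vesicle and active zone 11 were called lower and 0 higher, with a median of −0.14, against 6.45% of all genes called lower, and 9 of the 35 fold changes were above 0. Unc13a, which primes vesicles for release, was measured at 370, 259, 280, 279 and 281 CPM at 6 months and at 140, 133, 129, 168 and 236 CPM at 12 months. The ages did not overlap (log2 fold change −0.85 ± 0.15 SE, adjusted p = 0.0022). Syn1, a phosphoprotein that tethers vesicles, changed by −0.53 ± 0.08 (SE, adjusted p = 0.0017). Syt5, a calcium sensor of secretory vesicles, fell from 7.29 ± 0.363 to 3.25 ± 1.41 CPM (SD, n = 5 each; log2 fold change −1.15 ± 0.22 SE, adjusted p = 0.0027).

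Of 31 channel genes of ataxia and Purkinje neuron firing 4 were called lower and 2 higher, with a median of −0.07, against 15.8% of all genes called in either direction. Cacna1a was measured at 454, 356, 403, 396 and 401 CPM at 6 months and at 318, 340, 292, 354 and 327 CPM at 12 months. No 12-month library reached the lowest 6-month one, but its log2 fold change of −0.29 ± 0.07 (SE, adjusted p = 0.0058) was under the size asked of a call, and in WT it was −0.34. Cacna1g, the T-type channel Cav3.1, had a log2 fold change of −0.27 ± 0.06 (SE, adjusted p = 0.0045), also under that size. The potassium channel gene Kcnc1, whose product lets neurons fire fast, was called lower (log2 fold change −0.34 ± 0.07 SE, adjusted p = 0.0031). Kcnma1 and Kcnn2, of the BK and SK potassium channels, had log2 fold changes of −0.01 and 0.01, each within 1 SE of 0. Itpr1, the calcium release channel of the ER, had one of 0.02 ± 0.09 (SE, adjusted p = 0.87). In store-operated calcium entry 1 of 13 genes was called, and Orai2 and Stim1 had log2 fold changes of 0.09 ± 0.04 and −0.08 ± 0.04 (SE, adjusted p = 0.08 and 0.15).

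Markers of cell types were used to describe the make-up of the tissue, and are set against the 9.36% of all genes called higher and 6.45% called lower. Of 36 Purkinje cell markers 1 was called lower and 0 higher, with a median of −0.06. Of 22 granule cell markers 4 were called lower. Among them Grm4, a presynaptic glutamate receptor of parallel fibres, was measured at 570, 468, 520, 561 and 577 CPM at 6 months and at 331, 309, 289, 318 and 380 CPM at 12 months. The ages were far apart (log2 fold change −0.72 ± 0.07 SE, adjusted p = 0.0011). Slc17a7, the vesicular glutamate transporter, changed by −0.31 ± 0.06 (SE, adjusted p = 0.0024), close to the size asked of a call. Slc17a7 was not called without 12-month replicate 2, where it was −0.29, nor without 6-month replicate 4 or 6-month replicate 5. Of 28 endothelial and pericyte markers 6 were called lower and 1 higher, among them Flt1, a VEGF receptor (−0.41 ± 0.05 SE, adjusted p = 0.0014), and the glucose transporter Slc2a1 (−0.40 ± 0.07 SE, adjusted p = 0.0019).

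Of 12 markers of oligodendrocyte precursors 3 were called lower and 0 higher, against 6.45% of all genes called lower. Gpr17, a receptor of differentiating precursors, was measured at 29.1, 24.3, 20.9, 23 and 20.6 CPM at 6 months and at 9.14, 6.99, 8.13, 11.5 and 16.1 CPM at 12 months. The ages did not overlap (log2 fold change −1.17 ± 0.18 SE, adjusted p = 0.0017). Neu4 changed by −0.41 ± 0.09 (SE, adjusted p = 0.0058). Of 29 markers of mature oligodendrocytes 3 were called higher and 1 lower, close to the 9.36% and 6.45% of all genes. Among them Aspa, which cleaves N-acetylaspartate, changed by 0.56 ± 0.10 (SE, adjusted p = 0.0024). Cerebellar interneurons had 1 of 22 markers called, choroid plexus 1 of 22, ependymal cells 1 of 14, red blood cells 1 of 9 and meningeal fibroblasts 4 of 22. Over all genes 15.8% were called in either direction. Brainstem and forebrain markers had 0 of 10 and 0 of 9 called by edgeR, with 1 and 2 at an unadjusted p under 0.05.

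Of 26 genes of cholesterol synthesis and uptake 6 were called higher and 0 lower, with a median of 0.14, against 9.36% of all genes called higher, and 7 of the 26 fold changes were below 0. Insig1, which holds SREBP in the ER, was measured at 61, 65.3, 62.2, 60.3 and 57.7 CPM at 6 months and at 93.4, 91.5, 96.8, 96.6 and 65.6 CPM at 12 months. The 12-month library with Y-linked transcripts was the lowest of its age and close to the 6-month libraries (log2 fold change 0.55 ± 0.09 SE, adjusted p = 0.0018). Lss, lanosterol synthase, changed by 0.36 ± 0.05 (SE, adjusted p = 0.0016).

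Of 37 cold-inducible RNA-binding proteins and splicing factors 9 were called higher and 0 lower, against 9.36% of all genes called higher. Rbm3, a cold-shock RNA-binding protein, was measured at 129, 114, 123, 106 and 124 CPM at 6 months and at 214, 228, 235, 219 and 133 CPM at 12 months. Replicate 5 again lay near the 6-month level (log2 fold change 0.80 ± 0.13 SE, adjusted p = 0.0017). The splicing kinase Clk4 changed by 0.39 ± 0.05 (SE, adjusted p = 0.0014). Immediate early genes had 5 called higher and 7 lower of 36, against 9.36% and 6.45% of all genes. Ptgs2, cyclooxygenase 2, was higher (0.83 ± 0.18 SE, adjusted p = 0.0044) and the phosphatase Dusp5 lower (−0.40 ± 0.09 SE, adjusted p = 0.0046), and in both the ages overlapped. Of 19 clock genes 2 were called higher and 3 lower, against the same shares of all genes. Nr1d2, a repressor of the clock, rose from 261 ± 24.7 to 358 ± 20.6 CPM (SD, n = 5 each; adjusted p = 0.0016), and the activator Npas2 fell from 6.25 ± 0.474 to 3.93 ± 0.639 CPM (SD, n = 5 each; adjusted p = 0.0018). The hour of dissection is not given in the labels.

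Other named genes with large decreases had no list. Avil, an actin-binding protein, fell from 7.91 ± 3.18 to 3.11 ± 1.03 CPM (SD, n = 5 each; log2 fold change −1.32 ± 0.27 SE, adjusted p = 0.0036), and its ages overlapped. Fbxl22, an F-box protein, fell from 9.64 ± 1.8 to 4 ± 1.41 CPM (SD, n = 5 each; log2 fold change −1.25 ± 0.19 SE, adjusted p = 0.0017). Ntf3, the neurotrophin NT-3, was measured at 5.98, 4.92, 6.04, 7.5 and 8.22 CPM at 6 months and at 3.36, 3.03, 2.5, 2.95 and 3.33 CPM at 12 months. The ages did not overlap, and the log2 fold change was −1.09 ± 0.13 (SE, adjusted p = 0.0014).

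Counts for housekeeping groups are given against the 15.8% of all genes called. Ribosomal proteins had 1 of 76 called, nuclear genes of oxidative phosphorylation 0 of 75 by edgeR (18 at an unadjusted p under 0.05, of which 16 lower), mitochondrially encoded genes 2 of 13, proteasome subunits 2 of 37 and lysosomal genes 3 of 41. Collagens and other matrix genes had 11 called higher and 12 lower of 80.

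The change followed the base composition of genes. In the 10 libraries, log2 fold change and the GC content of the gene had a Spearman correlation of −0.58 across 12548 genes, given as a description, since genes are not independent replicates. The median GC content was 43.2% in genes called higher, 56.1% in genes called lower and 49.7% in all genes with a value. The same correlation was −0.64 in WT and −0.41 for SCA6 at 19 against 3 months. In single libraries, the deviation of genes from their mean over the 10 libraries had a Spearman correlation with GC content. It was −0.13 to 0.59 at 6 months and −0.58 to −0.19 at 12 months. Across the ages, 6-month replicate 2 (−0.13) and 12-month replicate 5 (−0.19) lay closest together. The relation of GC content to the first principal component was not tested. With an offset for GC content in each library, 1296 genes were called, 779 higher and 517 lower. Under these offsets 11 of 12 ER chaperones, 17 of 46 cytosolic chaperones and 8 of 19 glucocorticoid genes were called lower, and 42 of 47 interferon and 19 of 24 microglial genes higher. The calls in synaptic genes fell to 7 of 35, and those in cold-inducible and splicing genes to 3 of 37. Among named genes Slc17a7, Kcnc1, Fkbp2, Dusp5, Clk4 and Nr1d2 were not called with offsets. The log2 fold change of Cacna1a was −0.13 with them. Whether base composition tracks library preparation or RNA quality was not tested.

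**Figure D4:**
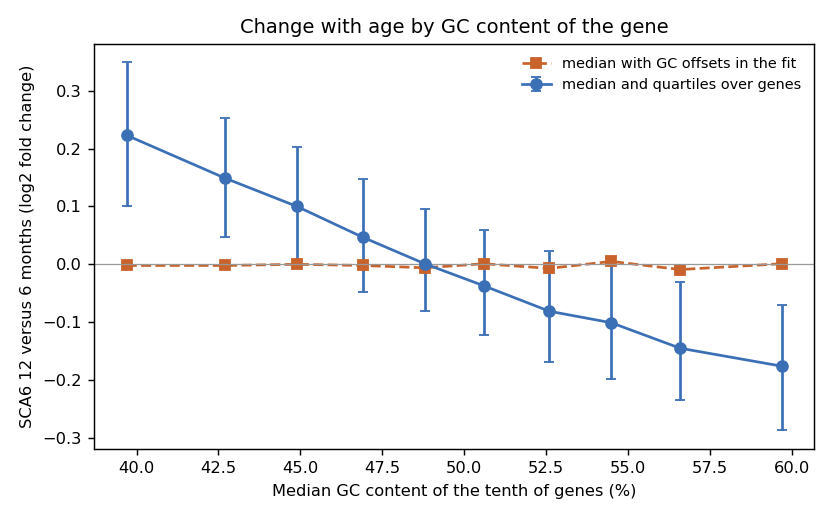
Median log2 fold change of SCA6 12 against 6 months in 10 equal bins of genes ordered by GC content (y axis; x axis, median GC content in %; bars are quartiles over genes). It falls from 0.22 at 39.7% GC to −0.18 at 59.7% GC, and the dashed line shows it near 0 with GC offsets.

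WT cerebella were compared at the same ages to see which changes differed by genotype. There 1366 of 13176 genes (10.4%) were called, 781 higher (5.93%) and 585 lower (4.44%), and 749 were called without WT 6-month replicate 1. The WT and SCA6 comparisons share no library. Of 2050 genes called in SCA6 and tested in both, 1932 (94.2%) had the same sign in WT. The WT labels carry ID number 7, 8 or 10 at 6 months and 2, 3 or 4 at 12 months. Age and ID number thus cannot be told apart in WT either, and numbers 7, 8, 2 and 3 occur in both genotypes. With GC offsets 366 genes were called in WT. How far the agreement goes with ID number or GC content was not tested. Across 13128 genes the 2 sets of log2 fold changes had a Pearson correlation of 0.68, as a description. Genes called in both numbered 714, which is 34.8% of the SCA6 calls and 52.7% of the WT calls.

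The difference of the age change, SCA6 minus WT, was tested itself in 20 libraries. Y-linked transcripts were absent from WT 6-month replicates 2 and 5 and WT 12-month replicate 1. They were present in the other WT libraries of these ages, so the genotypes differed in this as well. For the gene lists the part of the difference that goes with these transcripts was not tested. By edgeR 0 of 13270 genes (0.0%) were called, with 1224 at an unadjusted p under 0.05 and a smallest adjusted p of 0.54. DESeq2 also called 0 (1292 at an unadjusted p under 0.05), as did edgeR with Y-linked expression as a covariate. In contrast, limma voom with quality weights called 521, of which 272 were higher and 249 lower. For ER chaperones the median log2 fold change was −0.76 in SCA6 and −0.20 in WT, where 0 of 12 were called, and the median difference was −0.54 with 0 of 12 at an unadjusted p under 0.05 by edgeR. limma voom with quality weights called 8 of these 12 lower in the difference. Most of this list was named by the study for being higher in SCA6 than in WT at 6 months, in libraries of this series. That 6-month difference enters the tested difference with a minus sign, so its direction here is not independent evidence. The WT libraries varied widely at 6 months, with ER chaperone scores from −0.39 to 0.76. Hspa5, for instance, had a log2 fold change of −0.23 ± 0.31 (SE) in WT, and a difference of −0.76 (unadjusted p = 0.084).

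Interferon genes were called higher in both genotypes, 36 of 47 in WT with a median of 0.68, against 5.93% of all genes called higher in WT. The median difference was 0.70, with 12 of 47 at an unadjusted p under 0.05 and 0 called by either edgeR or limma voom. Most of it rested on 1 library. Without SCA6 12-month replicate 2 the SCA6 median was 0.82 and the median difference 0.12, with 4 of 47 at an unadjusted p under 0.05 and 34 of 47 above 0. Microglial genes had a median of 0.45 in both genotypes, with 17 of 24 called higher in WT and a median difference of 0.03. In HSF1 targets the median was −0.02 in WT, and 11 of 46 differences were at an unadjusted p under 0.05, all lower in SCA6. Granule cell markers had 9 of 22 called lower in WT, against 4.44% of all genes. Choroid plexus markers had a median of 0.64 in WT with 0 of 22 called. The lowest WT 6-month library had a choroid plexus score of −4.39, against a group median of −0.04. Brainstem markers had 3 of 9 called higher in WT, and 5 of 10 differences at an unadjusted p under 0.05 by edgeR, all lower in SCA6. Whether dissection differed between these libraries was not tested.

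**Figure D5:**
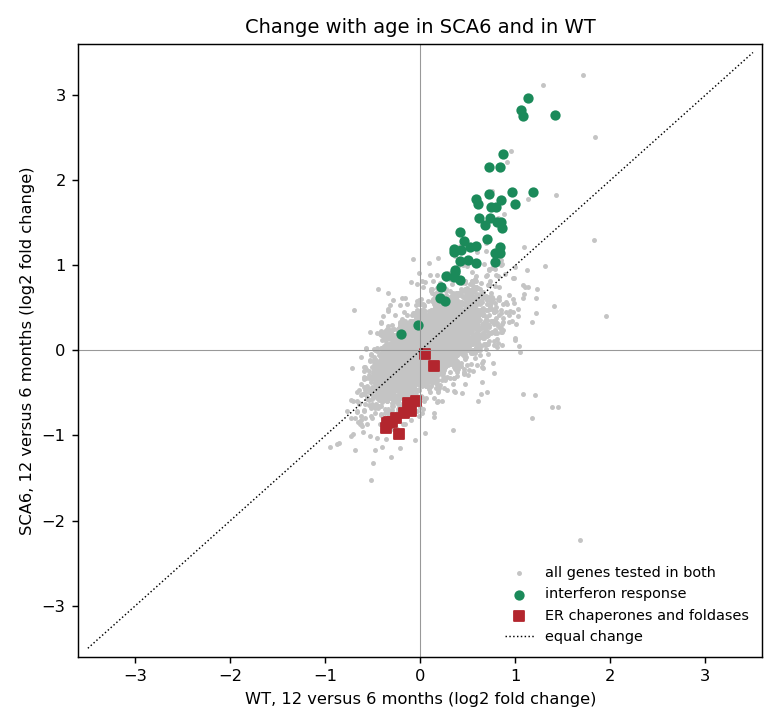
Log2 fold change of 12 against 6 months in WT (x axis) and in SCA6 (y axis) for all genes tested in both, with interferon genes in green, ER chaperones in red and equal change as a dotted line. Interferon genes lie mostly above the line, with medians of 1.31 in SCA6 (0.82 without 12-month replicate 2) and 0.68 in WT. ER chaperones lie below it, at −0.76 and −0.20, and their list was chosen by the study from libraries that include these.

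The earlier and later ages of SCA6 mice show how these levels stood on either side. At 19 against 3 months 889 of 13264 genes (6.7%) were called, 670 higher (5.05%) and 219 lower (1.65%). Of the SCA6 libraries at 3 months 2 had Comp levels in the range of WT (from 3.62 CPM), against the label, and without them 520 genes were called, 421 higher and 99 lower. ER chaperones had 0 of 12 called and a median of −0.01 there (−0.11 without the 2 libraries), with scores of −0.28 to −0.01 at 3 months and −0.30 to 0.04 at 19 months. The 6-month libraries, at 0.28 to 0.94, thus lay above those of both other ages, and 4 of the 5 12-month libraries lay between −0.38 and −0.26. Interferon genes were called higher in 48 of 49 at 19 against 3 months, with a median of 1.19. Their score was −0.74 to −0.63 at 3 months and 0.36 to 0.74 at 19 months, and that of the 12-month libraries other than replicate 2 was 0.14 to 0.38, above all 3-month libraries and overlapping the 19-month range. Microglial genes were called higher in 21 of 24, and their median of 0.79 compares with 0.45 between 6 and 12 months. Purkinje cell markers had 6 of 36 called lower at 19 against 3 months.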

How the data were processed

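Polyadenylated RNA from the cerebellum of WT and SCA6 84Q/+ mice was sequenced by the authors as 150 bp paired-end reads, and the deposited values are raw counts per gene in 1 table of 21967 genes and 40 libraries. The submitters' processing notes and the study's methods name FastQC, Trimmomatic, STAR, HTSeq and the mm10 build. The sources used here give no versions, annotation or strand setting. Groups were taken from the labels. The study's methods state that outliers were removed and that its co-expression network used fewer libraries, without naming those left out. All 40 libraries were kept here.

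Counts were tested with edgeR 4.0.16 (R 4.3.3), quasi-likelihood, TMM scaling and Benjamini-Hochberg adjustment. Genes needed 1 CPM in every library of at least one group of the fit. A call needed an adjusted p of 0.05 or less and a log2 fold change of 0.3 or more in size. The SCA6 comparison of ages was fitted on its 10 libraries, as were WT at the same ages and SCA6 at 19 against 3 months, and the difference of the age change on 20. CPM used TMM-scaled library sizes, and list scores a prior count of 1. The scripts were tested on simulated data.

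Alternatives were DESeq2 1.42.0, limma 3.58.1 voom with sample quality weights, RLE and upper-quartile scaling, no filter or filterByExpr, calls without a fold minimum, 1 fit over all groups, the replicate number as a block, Y-linked expression as a covariate, only libraries without Y-linked transcripts (under 10 CPM), and leaving out each library. Offsets for GC content (lowess, span 0.3), and leaving out 2 SCA6 3-month libraries, were chosen after seeing the data. Promoter windows and positions came from RefSeq, GRCm38.p6.

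The genes, lists and rule were chosen with earlier results of these data known. Genes were named if called, averaging at least 1 on the log2 CPM scale and among the 10 that rose or the 10 that fell most, if among the 4 called genes of a list that had the lowest adjusted p (or, in lists with under 2 calls, its 2 most abundant members), or if in the ER chaperone list, Cacna1a or a channel that the study measured. Of 137 genes under this rule a part is named, clone names were left out, and some results are not reported here. Replicate numbers did not pair the libraries. Samples with the same number in the SCA6 ages had correlations of their deviations between −0.09 and 0.09, and no 2 libraries of the 10 agreed within sampling noise.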

Additional observations from a re-analysis of the deposited data

Results flagged for a closer look

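In groups of 5 libraries, a library was set apart when its gap to the nearest other library exceeded 0.71 of the range of the group (Dixon's 95% limit). This held for 53 of 168 groups of values, and chance alone sets apart about 1 in 20 groups. Genes of a list share libraries and are not independent.

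In 6-month replicate 1, with Y-linked transcripts, 18 values stood apart. The list scores (log2) were ER chaperones and foldases at 0.94, HSF1 targets and cytosolic chaperones at 0.47, glucocorticoid response at 0.57 and unfolded protein response and ER folding at 0.33. The levels in CPM were Sdf2l1 at 19.9, Hspa5 at 796, Hyou1 at 209, Pdia4 at 117, Pdia6 at 237, Creld2 at 38.3, Dnajb11 at 114, Stip1 at 323, Ahsa1 at 212, Hspa8 at 2930, Hif3a at 19.1, Plin4 at 14.7, Unc13a at 370 and Neu4 at 7.93. All of these were the highest of their age.

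In 12-month replicate 5, the other library with Y-linked transcripts, 21 values stood apart. The list scores (log2) were ER chaperones and foldases at 0.26, HSF1 targets and cytosolic chaperones at 0.06, unfolded protein response and ER folding at 0.07 and cholesterol synthesis at −0.11. The levels in CPM were Sdf2l1 at 8.66, Fbxl22 at 6.48, Cdkn1a at 26.2, Hspa5 at 435, Hsp90b1 at 726, Pdia3 at 231, Pdia6 at 136, Creld2 at 19.4, Dnajb11 at 66.1, Dnajc3 at 138, Xbp1 at 130, Ahsa1 at 127, Syn1 at 115, Neu4 at 6.5, Insig1 at 65.6, Rbm3 at 133 and Dusp5 at 103. For cholesterol synthesis, Insig1 and Rbm3 this library was the lowest of its age, nearest to the 6-month level, and for the others it was the highest.

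In 12-month replicate 2, 12 values stood apart, all of them the highest of their age. The list scores (log2) were interferon response at 2.14 and microglia at 0.53. The levels in CPM were Ifi213 at 12.8, Ddx60 at 33.6, Ifi27l2a at 52.2, Oasl2 at 145, Ifit1 at 107, Usp18 at 49.5, Trim30d at 28.6, Trem2 at 9.33, Ctss at 121 and Lyz2 at 27.3. Iigp1 in 6-month replicate 5 (1.72 CPM) was below and Orai2 in 6-month replicate 4 (71.1 CPM) above the other 6-month libraries. Without the 2 libraries with Y-linked transcripts 10 of 12 ER chaperones were still called lower, and without 12-month replicate 2 43 of 47 interferon genes were still called higher.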

How the results depend on the processing

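Of 66 named genes that were called, 54 kept call and direction in all 21 settings in which they gave an adjusted p, and 0 reversed. DESeq2 gave none for 5 of them. Between 6 and 12 months in SCA6, 5109 genes were called with no minimum fold change and 1296 with GC offsets, against 2090, and 1748 to 2555 when 1 library was left out. In WT these were 2622, 366 and 749 to 1963, against 1366. For SCA6 at 19 against 3 months they were 1639 with no minimum fold change, 520 without the 2 libraries at 3 months, and 674 to 1029 when 1 was left out, against 889. The difference of the age change gave 521 calls with limma voom and 0 when any 1 library was left out. Interferon genes called higher numbered 28 with limma voom and 40 to 45 when 1 library was left out. ER chaperones called lower numbered 9 to 10 when 1 library was left out. The cause of these shifts was not tested.

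With the replicate number as a block, 2058 genes were called in SCA6, 1407 in WT, 857 at 19 against 3 months and 0 in the difference, with 10 ER chaperones lower and 40 interferon genes higher. The block ended the call of Usp18.

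Genes near 0 that were not called changed sign. Dnajb9 was 0.02 with limma voom and 0.01 without Y-linked libraries. Kcnma1 was 0.00 without Y-linked libraries and −0.05 to 0.01 without 1 library. Itpr1 was −0.03 with limma voom and −0.06 to 0.06 without 1 library. Kcnn2 was 0.00 with no filter, in the joint fit and without Y-linked libraries, and −0.02 to 0.02 without 1 library. Stim1 was 0.02 with GC offsets. Fits without Y-linked libraries were not run for the other comparisons, since a group there keeps 1 library and this setting asked for 2.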
